A study of Solanum lycopersicum with 6 samples.

Results

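Footprints of initiating ribosomes from tomato (Solanum lycopersicum) leaf were set against leaf mRNA, gene model by gene model. The 4 libraries compared are the LTM and mRNA libraries, 2 of each kind, chosen by their titles out of 6 in the series, and the other 2 are CHX footprint libraries used to see how far elongating ribosomes went the same way. LTM libraries came from leaves treated with LTM, whose extract was then given puromycin. CHX libraries came from extracts made with 100 µg/ml cycloheximide. For mRNA, total RNA was purified from part of each cycloheximide extract and depleted of rRNA, so mRNA and LTM footprints came from differently treated leaves. All plants grew at 28 °C in cycles of 12 h light and 12 h dark. True leaves were taken at an age that the labels give both as 3 weeks and as 2 weeks, and the labels give no cultivar, LTM dose or number of plants per library.

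LTM is the usual abbreviation of lactimidomycin, although the labels do not spell it out. Lactimidomycin stops ribosomes that have just assembled at a start codon, before their first step along the message, while ribosomes already elongating run on and leave. Puromycin releases nascent chains from elongating ribosomes and so clears more of them. Cycloheximide freezes ribosomes wherever they stand, so that its footprints cover the whole coding region. A high ratio of LTM footprints to mRNA thus sets LTM-arrested ribosomes against the transcript level of the cycloheximide extracts. It need not equal the rate at which protein is made. RNA of the LTM-treated leaves was not measured. More arrested ribosomes per transcript and more transcript after LTM treatment therefore cannot be told apart.

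Library totals ran from 18240140 counts in LTM replicate 1 to 48704200 in CHX replicate 1. LTM counts were the most evenly spread: 143 and 122 models held 50% of the counts in the LTM libraries, 76 and 81 in CHX and 44 and 72 in mRNA. Because footprints were counted in coding regions and mRNA in transcript regions, each ratio to mRNA also depends on the untranslated share of a transcript. Footprints at a start codon need not grow in number with gene length, as CHX footprints and mRNA reads do. Ratios of LTM to mRNA or to CHX may therefore also depend on length, for which no correction was made. Positions of footprints within a gene were not analysed here. The deposited identifiers are not paired with gene names, and 0 entries of the RefSeq tomato gene table (SLM_r2.1) hold such an identifier. Genes could therefore not be grouped by function, the leaf label was not checked against marker genes, and models are named by identifier, 2 per direction.

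The first comparison asks which models carried more or fewer initiating footprints than their transcript level. Of 20806 models tested, LTM was higher than mRNA in 5299 (25.5%) and lower in 5691 (27.4%), in a quasi-likelihood model of all 6 libraries (edgeR, Benjamini-Hochberg adjusted p below 0.05). At least 2-fold differences made up 3581 of the higher calls (17.2% of the models tested) and 3980 of the lower ones (19.1%). At least 8-fold differences made up 1306 (6.28%) and 1080 (5.19%). Most models lay near the bulk, with a log2 ratio of -0.74 at the 25th percentile and 0.70 at the 75th. The tails were long, at -7.23 at the 1st percentile and 7.75 at the 99th. For scale, the log2 LTM/mRNA ratios of replicates 1 and 2 differed by a median of 0.29 per model, and by 1.37 at the 95th percentile.

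All ratios are read against the bulk, since TMM scaling assumes that most do not differ. The calls themselves do not meet this assumption, as 10990 models were called and 9816 were not. Scaling to total counts raised the log2 ratios by a median of 0.27, and 62.2% of the calls were then upward, against 48.2% with TMM. Nothing in the labels ties replicates to separate plants, and p-values therefore reflect the spread between these libraries alone, which may be technical. In whole leaf, fewer cells of a type and less RNA per cell cannot be told apart.

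**Figure D1:**
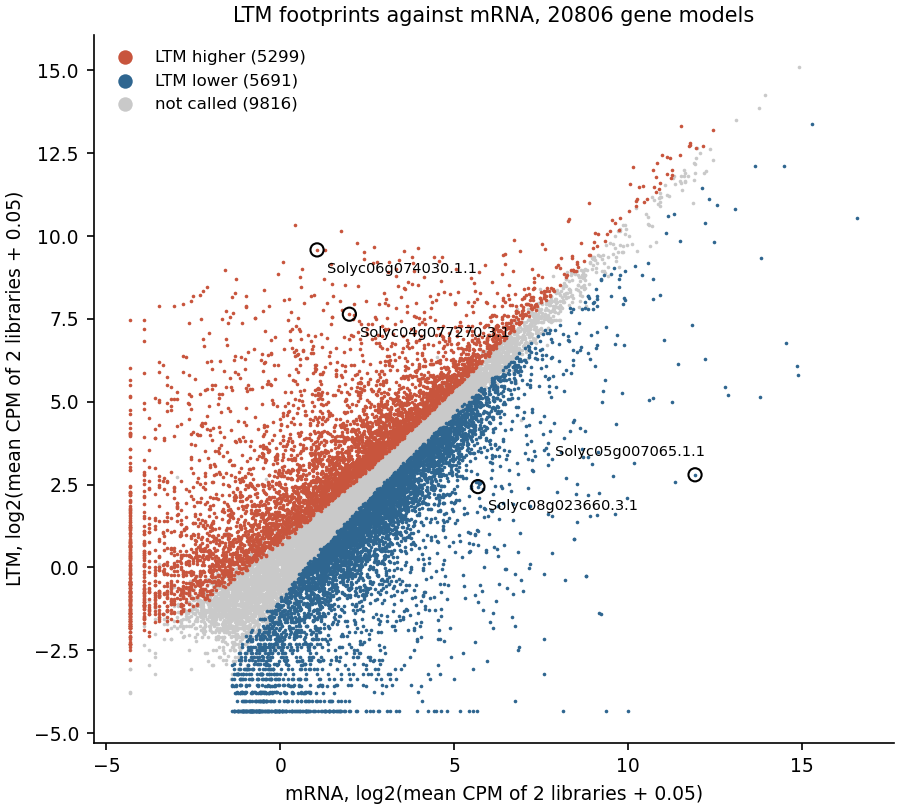
LTM level against mRNA level of the 20806 models tested, each the log2 of the mean CPM of 2 libraries plus 0.05, coloured by the edgeR call. The 5299 models higher in LTM (red) lie above the grey band and the 5691 lower ones (blue) below it, with the 4 named models circled.

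The calls were unlike in weight. Models called higher held 41.6% and 39.6% of the LTM counts, against 12.6% and 14.6% of the mRNA counts. Models called lower held 9.02% and 11.4% of the LTM counts, against 52.6% and 44.6% of the mRNA counts. Part of this lay in a few models: of the 20 with the highest mRNA CPM, a unit that takes no account of transcript length, 14 were called lower in LTM and 1 higher, with a median log2 ratio of -2.30. Among the 100 with the highest mRNA CPM, 33 were lower and 22 higher, and the median was 0.10. For 8 of these 14 the difference was at least 8-fold, and all 8 were also at least 8-fold lower in CHX. Ranking by the mRNA in the denominator favours low ratios. Of the 20 models with the highest LTM CPM, 11 were called higher and 1 lower, with log2 ratios between -1.89 and 1.81. Among the top 100 by LTM CPM, 39 were higher and 11 lower, with log2 ratios between -6.03 and 9.97.

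Solyc06g074030.1.1 had the largest excess of LTM over mRNA among models called higher in both kinds of footprint and measured at 1 CPM or more in each library and a mean of 10 CPM or more. It had 858 and 678 CPM in the LTM libraries, 3.49 and 2.73 CPM in CHX, and 2.19 and 1.86 CPM in mRNA. The LTM libraries stood far above all the others, while CHX was only just above mRNA. Against mRNA this was a 380-fold excess (log2 8.57, SE 0.27, edgeR adjusted p = 8.93e-07). The CHX excess over mRNA was 1.54-fold (log2 0.62, SE 0.22, edgeR adjusted p = 0.0475), and LTM exceeded CHX 247-fold (log2 7.95, SE 0.26, edgeR adjusted p = 1.26e-06). This CHX call was lost in 5 of 13 alternatives: total counts, at least 10 CPM required in 2 libraries, and without CHX replicate 1, mRNA replicate 1 or mRNA replicate 2. Over the 13, the adjusted p of edgeR or DESeq2 ran from 0.0114 to 0.234.

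Under the same floor, Solyc04g077270.3.1 led the models in which LTM was higher and CHX lower than mRNA. It had 197 and 204 CPM in LTM, 1.53 and 1.37 CPM in CHX, and 3.36 and 4.46 CPM in mRNA. No library of any kind overlapped with those of another. LTM was 50.8-fold above mRNA (log2 5.67, SE 0.20, edgeR adjusted p = 1.05e-06), while CHX was 2.72-fold below it (log2 -1.44, SE 0.19, edgeR adjusted p = 0.000869). The mRNA values rest on 72 and 139 counts.

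On the other side, Solyc05g007065.1.1 had the deepest deficit among models lower in both kinds of footprint that reached 1 CPM in each library and a mean of 10 CPM. Models below that floor had deeper fitted deficits. It had 6.22 and 7.59 CPM in LTM, 3.88 and 2.54 CPM in CHX, and 5624 and 2127 CPM in mRNA. Its mRNA libraries differed more than 2-fold from each other, yet both lay far above every footprint library. LTM was 559-fold below mRNA (log2 -9.13, SE 0.59, edgeR adjusted p = 1.26e-05), with a log2 value of -8.27 without mRNA replicate 1 and -9.60 without mRNA replicate 2. LTM and CHX were 2.16-fold apart, which the test did not separate (log2 1.11, SE 0.45, edgeR adjusted p = 0.0788). Whether this abundant RNA is read from a coding region was not tested.

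Under that floor, Solyc08g023660.3.1 led the models lower in LTM and higher in CHX. It had 3.02 and 7.75 CPM in LTM, 119 and 120 CPM in CHX, and 50.2 and 52.3 CPM in mRNA. CHX and mRNA were tight, and the 2 LTM values were both low but apart from each other. LTM was 9.26-fold below mRNA (log2 -3.21, SE 0.37, edgeR adjusted p = 0.000233), with a log2 value of -2.72 without LTM replicate 1 and -4.08 without LTM replicate 2. CHX was 2.34-fold above mRNA (log2 1.23, SE 0.33, edgeR adjusted p = 0.0176). This CHX call was lost without any single CHX or mRNA library and with at least 10 CPM required in 2 libraries, and the adjusted p of edgeR or DESeq2 ran from 0.00049 to 0.0826 over 13 alternatives.

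**Figure D2:**
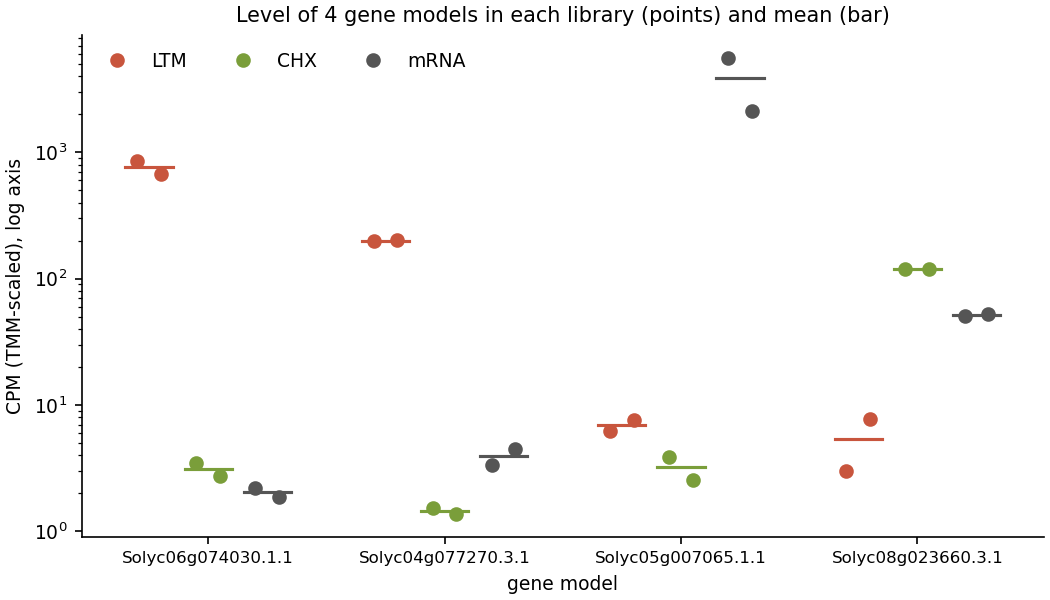
CPM on a log axis of the 4 named models in LTM, CHX and mRNA, with a point per library and a bar at the mean of 2. Solyc06g074030.1.1 and Solyc04g077270.3.1 are high in LTM alone, Solyc05g007065.1.1 is high in mRNA alone, and Solyc08g023660.3.1 is low in LTM alone.

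The second comparison asks how far elongating footprints went along with these calls. CHX was itself higher than mRNA in 4680 models (22.5%) and lower in 5708 (27.4%), and at least 8-fold higher in 308 (1.48%) and lower in 1343 (6.45%). Both contrasts use the same mRNA libraries, so a chance deviation there moves both the same way, and the counts of joint calls are a description. Of the 5299 models higher in LTM, 2348 (44.3%) were also higher in CHX, 2521 (47.6%) were not called in CHX and 430 (8.11%) were lower. Of the 5691 models lower in LTM, 3910 (68.7%) were also lower in CHX, 1705 (30.0%) were not called and 76 (1.34%) were higher. Seen from CHX, the joint models were 50.2% of its higher calls and 68.5% of its lower calls.

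Testing LTM against one mRNA library and CHX against the other removes the shared library, at the price of fewer calls. With LTM against mRNA replicate 1 and CHX against mRNA replicate 2, 1199 of 3932 models higher in LTM (30.5%) were also higher in CHX, and 2836 of 4495 lower in LTM (63.1%) were also lower. With the mRNA libraries exchanged these were 1078 of 3737 (28.8%) and 2842 of 4453 (63.8%). The share of all models called in CHX in these fits was not counted, so the shares stand without a background and are not weighed against each other. Each of these contrasts rests on 1 mRNA library, whose spread is assumed to be that of the LTM and CHX libraries, so the class sizes are read as a description. Opposite calls numbered 221 and 206 for higher in LTM, and 7 and 13 for lower in LTM. Leaving out mRNA replicate 1 left 1132 models higher in both, and leaving out mRNA replicate 2 left 1477. Models higher in LTM and lower in CHX then numbered 198 and 184, and those lower in LTM and higher in CHX 4 and 2. Without CHX replicate 1 or 2, the class lower in LTM and higher in CHX held 27 and 43.

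LTM and CHX were compared directly in the same model, which called 4654 models (22.4%) higher in LTM and 4074 (19.6%) lower. Among the 2348 models that both kinds of footprint placed above mRNA, 1560 (66.4%) showed no called difference between LTM and CHX, 515 (21.9%) were higher in LTM and 273 (11.6%) lower. Among the 3910 placed below mRNA by both, 2778 (71.0%) showed no called difference, 428 (10.9%) were higher in LTM and 704 (18.0%) lower. A model with no called difference is not thereby shown to be equal. Where LTM was called higher than mRNA and CHX was not called, 2049 of 2521 models (81.3%) were higher in LTM than in CHX. Where LTM was lower than mRNA and CHX was not called, 1129 of 1705 (66.2%) were lower in LTM than in CHX. Choosing models by an LTM call without a CHX call favours these directions, and 0 models of either class were called the other way.

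Joint changes of at least 8-fold were counted in both directions, with no test of the difference between the shares, since the contrasts share libraries. Of the 1080 models with LTM at least 8-fold below mRNA, 907 (84.0%) were also at least 8-fold lower in CHX, against 6.45% of all models tested. Direct calls of lower in LTM than in CHX were made in 106 of them (9.81%, against 19.6% of all models). Another 157 were called higher in LTM than in CHX (14.5%, against 22.4% of all models). Footprints of these deficit models were scarce in both kinds, with medians of 0.0989 CPM in LTM and 0.0775 CPM in CHX. This leaves the direct test little room to call LTM lower. Of the 1306 with LTM at least 8-fold above mRNA, 253 (19.4%) were also at least 8-fold higher in CHX, against 1.48% of all models tested. Direct calls of higher in LTM than in CHX were made in 1052 of them (80.6%, against 22.4% of all models), which the choice of models for a high LTM level favours. Seen from CHX the order turned round: the joint models were 907 of its 1343 large deficits (67.5%) and 253 of its 308 large excesses (82.1%). Side by side, the median log2 ratio of the excess models was 4.76 for LTM and 0.79 for CHX, and that of the deficit models was -4.77 for LTM and -5.67 for CHX. Most excess models had little mRNA: 942 of 1306 (72.1%) lay below 1 CPM, and 204 had 0 mRNA counts, where the fitted fold depends on the prior count. Models with little or no mRNA could pass the filter on their footprints alone. Deficit models could likewise pass on their mRNA alone, and 192 of the 1080 had 0 LTM counts. A model that passed on mRNA alone is low in both kinds of footprint by selection, which favours joint deficits. With a floor of 3 on the summed counts of each kind, the shares were 13.6% of 1209 excess models and 84.0% of 1067 deficit models, and with at least 10 CPM required in 2 libraries they were 5.89% of 577 and 90.0% of 319.

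CHX was also read in ratios that have no library in common with the LTM ratios. With LTM replicate 1 over mRNA replicate 1 and CHX replicate 2 over mRNA replicate 2, CHX lay within 2-fold of mRNA in 717 of the 1153 models with an LTM ratio of at least 8 (62.2%). It did so in 33 of the 1052 models with LTM at least 8-fold below mRNA (3.14%). With the replicates exchanged, these were 666 of 1099 (60.6%) and 5 of 874 (0.572%). Over all models CHX lay within that range in 72.0% and 66.7%. Across the 20806 models, the separate ratios had a Pearson's r of 0.658 and 0.660 and a Spearman's rho of 0.586 and 0.593; models are not replicates of each other. Both ratios share the counting of coding region over transcript region, which by itself moves them together.

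**Figure D3:**
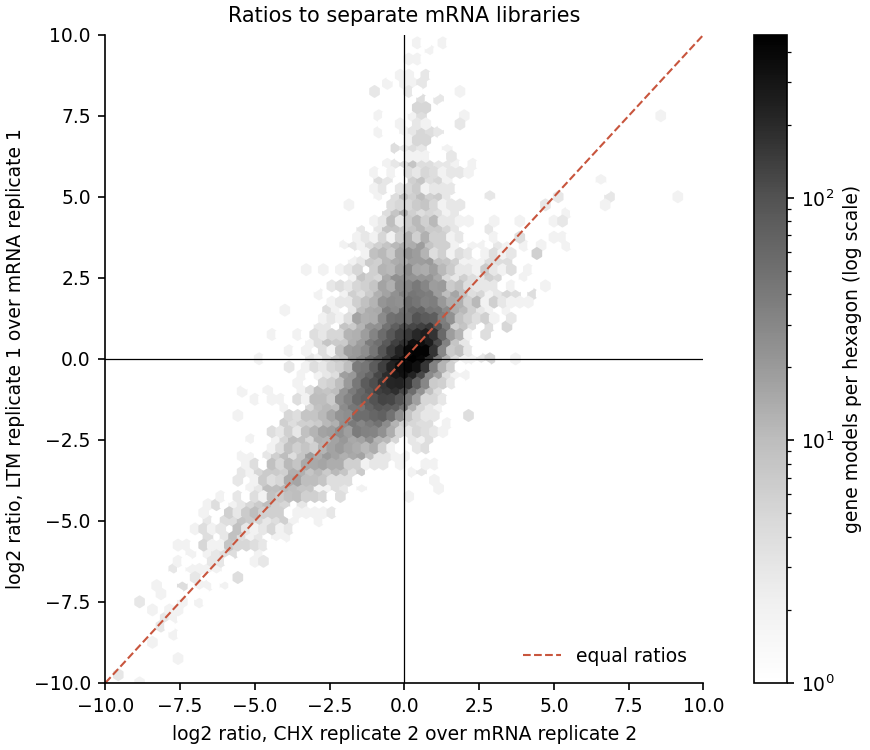
Log2 ratio of LTM replicate 1 over mRNA replicate 1 against that of CHX replicate 2 over mRNA replicate 2, with the number of models per hexagon in grey and 36 models beyond the axes not shown. Low ratios follow the dashed line of equal ratios, while high LTM ratios form a column where CHX is near 0. Of 1153 models with an LTM ratio of at least 8, 717 (62.2%) lay within 2-fold of mRNA in CHX, against 72.0% of all models.

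The classes differed in level, given here as CPM that is not divided by length. Models higher in both had a median of 14.8 CPM in LTM, 11.0 in CHX and 5.53 in mRNA. Models higher in LTM and lower in CHX had 8.86 CPM in LTM, 0.975 in CHX and 2.48 in mRNA. The 76 models lower in LTM and higher in CHX were the most abundant, at 17.4 CPM in LTM, 40.0 in CHX and 28.7 in mRNA. Their differences were small, with a median log2 ratio of -0.58 for LTM against mRNA, and 1 of the 76 was at least 8-fold lower. Models lower in both took 47.8% and 39.0% of the mRNA counts, and 5.27% and 7.87% of the LTM counts.

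The ratio was then read by CHX level, which is neither its numerator nor its denominator, although CHX and mRNA came from the same extracts. The spread narrowed as the CHX level rose. The interquartile range of the log2 LTM/mRNA ratio was 3.13 below 1 CPM of CHX (5795 models), 1.40 between 1 and 10 CPM (8486 models), 0.88 between 10 and 100 CPM (5449 models) and 0.71 at or above 100 CPM (1076 models). The medians moved little, at -0.04, -0.03, 0.03 and 0.21. Called deficits became rarer, at 31.2%, 28.9%, 23.9% and 11.5% of each class, while called excesses lay between 24.8% and 28.9%. With no filter on low counts, which adds scarce models to the lowest class (12557 models), deficits were 17.2%, 29.6%, 24.2% and 12.2% and excesses 14.0%, 25.6%, 24.2% and 28.3%, so the order of the lowest class rests on the filter. At least 8-fold excesses made up 13.4% of the lowest class and 0.558% of the highest, and at least 8-fold deficits 15.2% and 0.651%. Counting error is larger at low levels, and its part in the wider spread was not tested. The rise of the median from the lowest to the highest class was 0.25, and it was 0.05 without mRNA replicate 2, 0.10 without mRNA replicate 1 and -3.53 with the filter of 10 CPM, which keeps models of low CHX by their LTM or mRNA.

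**Figure D4:**
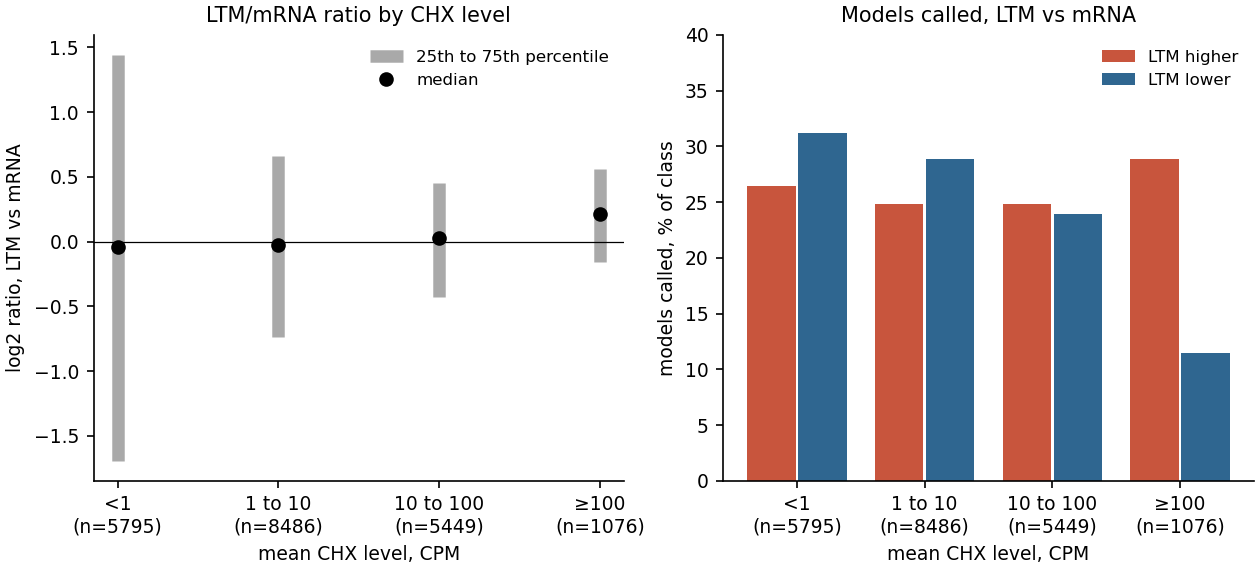
Left, median (point) and 25th to 75th percentile (bar) of the log2 LTM/mRNA ratio in 4 classes of mean CHX level in CPM; right, the share of each class called higher or lower in LTM. The interquartile range narrows from 3.13 to 0.71 and the share called lower drops to 11.5% in the top class.

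Tomato identifiers carry the chromosome, a running number and a version digit that counts revisions of the gene model, none of which the contrast uses. The classes below were not tested against each other. Of 3972 models tested at version 1, 1533 (38.6%) were higher in LTM than in mRNA, against 1093 of 4572 (23.9%) at version 2 and 2655 of 12196 (21.8%) at version 3. At least 8-fold excesses made up 14.5%, 6.32% and 3.57% of these classes, and at least 8-fold deficits 12.1%, 5.88% and 2.71%. The median log2 LTM/mRNA ratio was 0.39 at version 1, -0.01 at version 2 and -0.04 at version 3, and 66 models were at version 4. For CHX against mRNA the median lay between -0.04 and 0.00 in versions 1 to 3. At version 1 this covers groups with CHX medians of 0.26 and -0.53, given below. Of the version 1 models in the deposited file 30.7% passed the filter, against 84.9% at version 3. With no filter 23.4% of version 1 models were called higher, against 19.0% of later versions, where the figures with the filter are 38.6% and 22.4%. Version 1 models were scarcer, with a median of 1.61 CPM of mRNA against 6.19 at version 3. Within each class of CHX level, among models that passed the filter, the share called higher was still larger at version 1 than at later versions, at 35.0% against 22.3% below 1 CPM, 41.9% against 21.4% between 1 and 10 CPM, 40.2% against 23.1% between 10 and 100 CPM and 49.6% against 26.3% above that. The share called lower was also larger at version 1 below 1 CPM (32.6% against 30.5%) and at 100 CPM or more (20.7% against 10.4%). It was smaller at version 1 between 1 and 10 CPM (20.9% against 30.5%) and between 10 and 100 CPM (21.2% against 24.3%). Coding length and untranslated length were not used here, and their part in these shares was not tested.

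Among version 1 models, those whose running number ends in 0 and those whose number ends in another digit are given apart. The 2462 ending in 0 had 46.4% higher and 21.9% lower in LTM, with a median log2 ratio of 0.72. The 1510 ending in 1 to 9 had 25.8% higher and 34.0% lower, with a median of -0.08. Of those ending in 0, CHX was higher than mRNA in 27.8% and lower in 23.8%, with a median log2 ratio of 0.26. Of those ending in 1 to 9, CHX was higher than mRNA in 17.1% and lower in 42.2%, with a median of -0.53. Among the latter, 14.8% were at least 8-fold lower in LTM.

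Models with the chromosome digits 00, which mark sequence not placed on a chromosome of the assembly, are given last. Of 838 such models, 194 could be tested, and 92 of these (47.4%) were lower in LTM and 41 (21.1%) higher. Of the 194, 56 (28.9%) were at least 8-fold lower. With no filter on low counts 33.3% of chromosome 00 models were called lower, against 22.1% of the others. The figures with the filter are 47.4% and 27.2%, so the size of this contrast rests partly on the filter. Their median log2 ratio was -0.72 for LTM and -0.48 for CHX. On the placed chromosomes, 01 to 12, the share called lower ran from 24.2% to 29.2% and the share called higher from 22.3% to 27.2%. At least 8-fold deficits were most frequent there on chromosomes 11 (7.76%) and 12 (6.55%) and least frequent on chromosome 09 (3.52%).

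**Figure D5:**
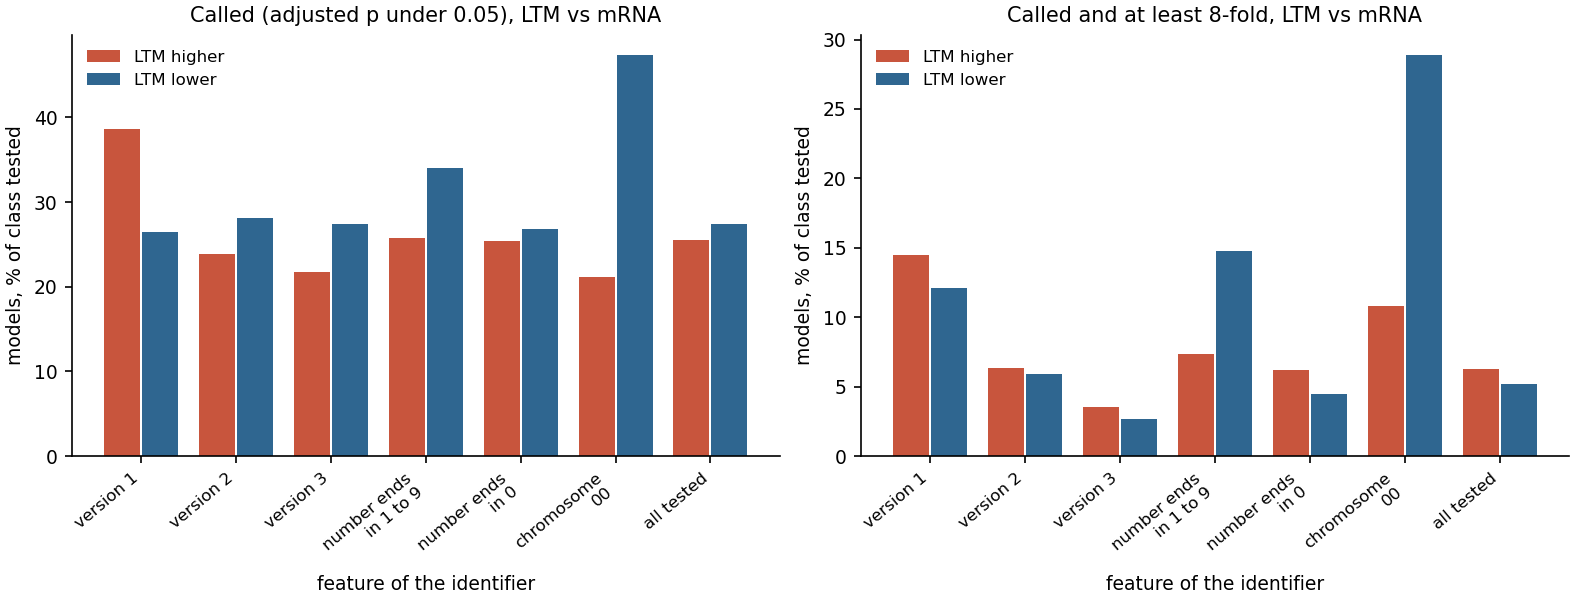
Share of tested models called higher (red) or lower (blue) in LTM than in mRNA, left for all calls and right for calls of at least 8-fold, by version digit, last digit of the running number and chromosome digits 00, beside all models tested. Version 1 models have the largest share called higher (38.6%), and chromosome 00 models the largest share called lower (47.4%).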

How the data were processed

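The authors deposited raw counts for each gene model: coding-region counts for both kinds of footprint and transcript-region counts for mRNA, per the file headers. Footprints were cut from a gel at 26 to 32 nt and all libraries read as 75-bp single ends, per the labels. Aligner, counting tool, strand setting, build and annotation: not given in the sources used here. Groups and replicate numbers came from sample titles.

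Tests were run with edgeR 4.0.16 and, as an alternative, DESeq2 1.42.0, under R 4.3.3. Of 35768 models, filterByExpr kept 20806. TMM factors ran from 0.863 to 1.16. A quasi-likelihood model with the kind of library as factor was fitted to all 6 libraries, leaving 3 residual degrees of freedom, and gave LTM vs mRNA, CHX vs mRNA and LTM vs CHX, two-sided, Benjamini-Hochberg adjusted over all models tested. Joint classes combine calls of 2 contrasts. Levels are CPM with TMM factors, and library ratios used a prior count of 2. A count of 0 allows up to 3 counts, 0.141 CPM in the shallowest library. Such limits cover counting error only. Models sharing reads with near-identical copies, or overlapping a neighbour, are uncertain.

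Named models have the largest absolute log2 LTM vs mRNA in each of 4 joint classes, among called models of at least 1 CPM in each library and a mean of at least 10 CPM whose LTM and mRNA libraries do not overlap. Members, lists and classes were chosen with earlier results of these data known. The 9 gene lists by description were not run, for want of names. Simulated counts for LTM vs mRNA (20292 models, 100 changed 2-fold and 100 changed 4-fold, mean of at least 50 counts) gave recovery of 37% and 98%, with 8.78% of calls false. Alternatives were other filters, scalings, DESeq2, a replicate block, a 2-fold minimum, separate mRNA libraries, and leaving out each library.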

Additional observations from a re-analysis of the deposited data

Results flagged for a closer look

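For 3 named models the effects against mRNA differed between the kinds of footprint, by the direct test of LTM against CHX. The log2 ratio of LTM to CHX was 7.95 for Solyc06g074030.1.1 (edgeR adjusted p = 1.26e-06), 7.11 for Solyc04g077270.3.1 (edgeR adjusted p = 1.2e-06) and -4.44 for Solyc08g023660.3.1 (edgeR adjusted p = 8.54e-05). Each was chosen for its LTM level against mRNA, and Solyc04g077270.3.1 and Solyc08g023660.3.1 also for a CHX call in the opposite direction, which favours a difference between LTM and CHX.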

How the results depend on the processing

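No model called in LTM vs mRNA was called the other way with another filter, scaling or tool, with the replicate block, in the 4 LTM and mRNA libraries alone or without any single library, and the LTM vs mRNA calls of the 4 named models held in all 52 alternative values, with edgeR or DESeq2 adjusted p up to 0.00205. Of their 52 values of CHX vs mRNA, added after seeing the data, 42 kept the call and 10 missed the threshold, 5 each for Solyc06g074030.1.1 and Solyc08g023660.3.1. Of 176 alternative counts 143 lay within 1.5 times the reported ones.

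With 10 CPM required in 2 libraries, 8292 models were tested, 2454 called higher and 2292 lower. The joint classes then held 882 models higher in both and 1264 higher with CHX not called, 1628 lower in both, 643 lower with CHX not called and 21 lower in LTM and higher in CHX. At least 8-fold changes in both numbered 34 higher and 287 lower, version 1 models called higher 557, and chromosome 00 models called lower 44. Fewer models tested make part of this. A 2-fold minimum left 939 higher in both, 223 higher in LTM and lower in CHX, and 6 of the reverse. The reverse class was 136 with upper-quartile factors, 10 with total counts and 213 with the replicate block. Total counts left 907 lower with CHX not called. Setting summed counts under 3 to 3 left 165 models at least 8-fold higher in both. The rise of the median with CHX level was 0.20 with no filter, 0.26 with upper-quartile factors and with total counts, and -3.53 with the 10 CPM filter. Leaving out 1 library gave 0.05 to 0.35 for that rise, 1132 to 2131 models higher in both, 184 to 393 higher in LTM and lower in CHX, and 2 to 74 of the reverse. Separate mRNA libraries gave 1199 and 1078 higher in both, 221 and 206 higher in LTM and lower in CHX, and 7 and 13 of the reverse. The cause of these shifts was not tested.

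CHX and mRNA came from the same extracts, a pairing that the main model does not use. Replicate numbers are not said to mark a shared extract or batch. Deviations from the means correlated at 0.207 for LTM and mRNA, 0.338 for LTM and CHX and 0.356 for CHX and mRNA. The replicate block kept 99.8% of the LTM vs mRNA calls, the most of any alternative. It called 6062 models higher and 6313 lower, and gave 3017 models higher in both and 4400 lower in both. DESeq2 kept 90.8% of the LTM vs mRNA calls and total counts 86.1%. Fits without an LTM or mRNA library kept fewer than these. The 10 CPM filter kept 41.1%, with 8292 models tested. The alternatives for the medians and identifier classes were not run with DESeq2 or the block. Depth leaves a limit for the 204 models called higher with 0 mRNA counts and the 192 called lower with 0 LTM counts.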

Other observations

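Calls of neighbouring models were counted, with no test. Of 5296 models called higher in LTM with a next tested model in identifier order on the same chromosome, the next was also called higher in 1714 (32.4%), against 25.5% of all models tested. For models called lower the next was also lower in 1881 of 5687 (33.1%, against 27.4%). For changes of at least 8-fold these were 259 of 1304 (19.9%, against 6.28%) upward and 194 of 1079 (18.0%, against 5.19%) downward. Neighbours can share reads as tandem copies or overlapping models, and the part of this was not tested. Among models of at least 100 counts, 12 formed 6 sets whose members had identical counts in every library.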
